A study of Drosophila melanogaster with 10 samples.

Results

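Long noncoding RNAs (lncRNAs) are transcripts longer than small RNAs that encode no long protein, and they act in the nucleus or cytoplasm as scaffolds, as regulators of nearby genes, or as the primary transcripts from which microRNAs (miRNAs) are cut. In the Drosophila brain the let-7 complex locus, let7C, carries miRNAs that set the order in which Kenyon cell (KC) types are born. Hsromega builds the omega speckles, nuclear bodies that hold RNA-binding proteins of the hnRNP family and grow after heat shock. KCs form the mushroom body, a centre for associative olfactory memory, and serotonin released onto them is cleared by the serotonin transporter, encoded by SerT (dSERT in the study).

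The lncRNAs described here are the rows of the deposited gene table whose name begins with lncRNA, other than roX1 and roX2, and that had at least 50 reads in each of the 10 samples. Among its 9655 rows, 317 carried such a name, 315 remained without the roX rows, and 37 reached the minimum. Names are given below without their prefix. These 37 genes were chosen by their read counts, so their levels are a description and were not tested against other genes. Just inside the minimum lay CR46348, with a lowest count of 50, a median of 75 and a highest of 162, and CR43334, with 50, 170.5 and 243. Just outside it lay CR45312, with 48, 128 and 272, and CR44909, with 44, 121 and 343.

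The samples were KCs from female flies on day 0, the day of eclosion, 5 from dSERT16 and 5 from dSERT4. Flies of both groups were homozygous for their SerT allele and carried the Mef2(P247)-gal4 driver with UAS-nls.GFP, so that GFP-positive cells could be sorted from pooled central brains without optic lobes. The dSERT16 allele is a mutant left by imprecise excision of a P-element, with a deletion at the 5′ end of SerT, and dSERT4 is the background-matched control, which itself carries a small deletion. The driver labels α/β and γ KCs more fully than α′/β′ KCs, and the libraries were made by SMART-seq, which copies polyadenylated RNA from few cells. Replicate numbers 1 to 5 mark the shared title prefix of a dSERT4 and a dSERT16 sample, and genotypes were compared over replicates 2 to 5, since the study removed both samples of replicate 1. In such bulk samples, fewer cells of a type and less RNA per cell cannot be told apart.

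Between 18446396 and 69997102 reads per sample fell on annotated features, and the 37 lncRNAs took 0.522% to 0.730% of them. The 13 KC markers, among them ey, Mef2 and dac, were all at a median of 1 CPM or more (reads scaled to a common library size by TMM), with a summed level of 28155 to 29800 CPM in the samples of replicate 1 and 30120 to 33299 CPM in the other samples. Of 10 glial markers 8 reached that median. Their list had a summed level of 233 to 488 CPM in the samples of replicate 1 and 958 to 1628 CPM in the other samples. The other markers, alrm and moody, had no counted reads. Reads within overlapping features are counted for neither, so a lack of counted reads need not mean a lack of RNA. The list of other neurotransmitter neurons reached it for 6 of 8 matched genes, with a summed level of 198 to 313 CPM. The photoreceptor and eye list reached it for 2 of 8 genes and the fat body and blood cell list for 1 of 8. SerT itself had few reads, with 2.62, 1.06, 2.15, 3.40 and 0.920 CPM in dSERT4 replicates 1 to 5 and 0.791, 0.612, 0.762, 0.325 and 0.230 CPM in dSERT16 replicates 1 to 5, so that the genotypes did not overlap (log2 difference -1.92, edgeR adjusted p = 0.519 over the 4 pairs).

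A few of the 37 lncRNAs dominated the signal. CR42862 and Hsromega together took 82.3% of all reads counted on the 37 genes, and the other 35 took 0.105% to 0.120% of the feature reads of a sample. To set genes side by side, levels were expressed as CPM per kb of countable gene span, meaning the bases of a gene covered by no other annotated feature. On this scale the highest median belonged to CR42862, with 615 (range 544 to 678 over the 10 samples), followed by CR31451 with 294 (221 to 343), CR40469 with 111 (70.5 to 138), Hsromega with 91.0 (49.1 to 130) and CR42861 with 76.9 (67.8 to 93.7). CR31451 is named mimi in the annotation used here, an RNA known as a scaffold of neuronal RNA granules. The lowest medians were those of CR32773, CR31386 and CR44833, at 0.126, 0.157 and 0.176 CPM per kb, and the highest median was 4896 times the lowest. These 3 have exons of 1868, 2763 and 446 bp in spans of 223710, 36194 and 107223 bp. Their low place and the ratio therefore depend on dividing by span, and no scale by exon length was used.

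**Figure D1:**
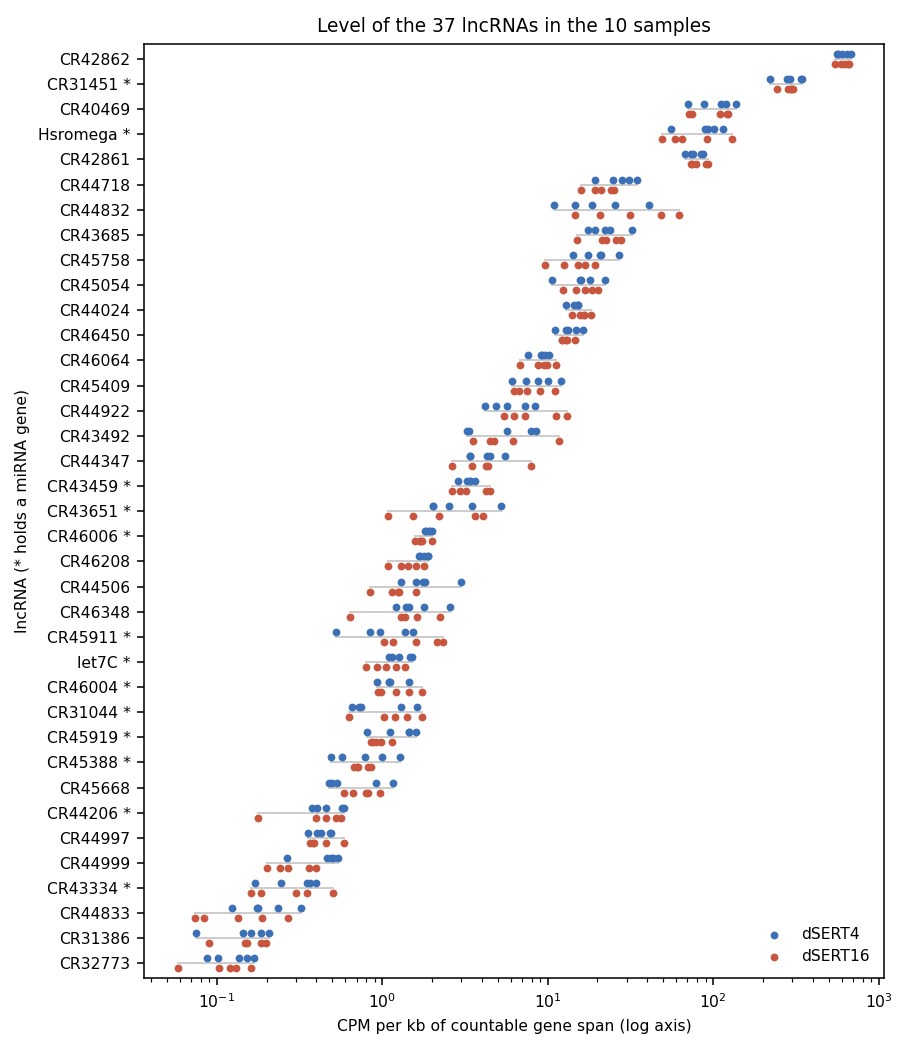
Level of each of the 37 lncRNAs in CPM per kb of countable gene span (log axis), with 1 point per sample, dSERT4 in blue and dSERT16 in red, and a grey line over the range of the 10 samples. CR42862, at 544 to 678, stands above all others, and the ranges of red and blue points overlap along the whole order.

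In the order of these medians, 33 of 36 neighbouring lncRNAs had overlapping ranges over the 10 samples, so most of the order is not resolved beyond the spread between samples. The 3 clear steps were those below CR42862, below CR31451 and below CR42861. In the TPM values that the authors deposited for the 4 pairs, which divide by the whole gene span, CR42862 ranked 62 of 9655 rows by its median and CR31451 ranked 124. The 37 lncRNAs had a median TPM of 12.1, against 22.9 over all rows and 1.14 over the lncRNA rows under the minimum, and 16 of the 37 lay above the median of all rows. The gap to the rows under the minimum follows from the rule, which chose by reads.

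CR42862 (FBgn0262109) lies on the forward strand of chromosome arm 3L from 224106 to 230964 in the BDGP6 genome, with 3 exon blocks, and CG33229 overlaps its exons on the same strand. It was also the steadiest of the abundant lncRNAs. Its level was 3631, 3441, 3043, 2985 and 3234 CPM in dSERT4 replicates 1 to 5 and 3504, 3356, 3533, 2918 and 3160 CPM in dSERT16 replicates 1 to 5. The highest and the lowest sample differed by 1.24-fold and the genotypes overlapped.

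Hsromega (FBgn0001234), on the forward strand of 3R from 21296127 to 21317836 as 1 block of exons over 7 annotated transcripts, varied far more. It stood at 2475, 2016, 2169, 1192 and 1937 CPM in dSERT4 replicates 1 to 5 and at 1393, 2807, 1987, 1272 and 1058 CPM in dSERT16 replicates 1 to 5. The highest sample was dSERT16 replicate 2 and the lowest dSERT16 replicate 5, a 2.65-fold range within the mutant, and both samples of replicate 4 were low. The SD of its log2 CPM within a genotype was 0.53, against a median of 0.33 over the 37 lncRNAs.

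CR31451 (FBgn0051451), on the forward strand of 3R from 23983503 to 23985065 as a single exon block, had 514, 439, 419, 331.3 and 508 CPM in dSERT4 replicates 1 to 5. In dSERT16 replicates 1 to 5 it had 440, 456, 445, 362 and 425 CPM. Its lowest value in each genotype was that of replicate 4, and the range over all samples was 1.55-fold.

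**Figure D2:**
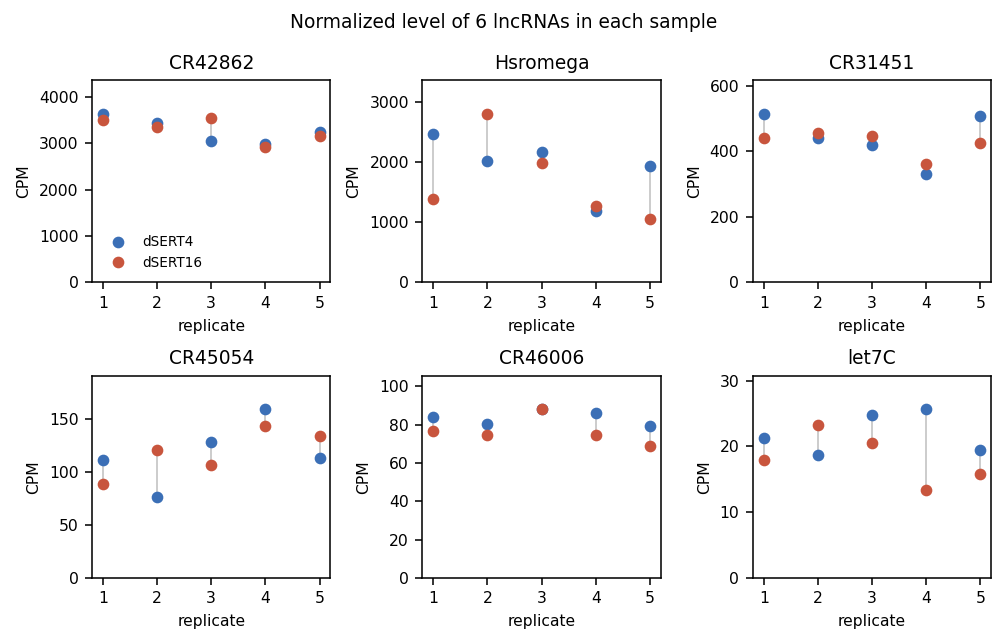
Normalized level (CPM, axes from 0) of the 5 lncRNAs with the highest mean and of let7C in each replicate, dSERT4 in blue and dSERT16 in red, with a grey line joining the pair of a replicate. CR42862 stayed between 2918 and 3631 CPM, whereas Hsromega ran from 1058 to 2807 CPM with the higher genotype changing between replicates.

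Across the 37 lncRNAs, 15 varied less than 2-fold over the 10 samples and 27 less than 3-fold. The median SD of log2 CPM within a genotype was 0.33, against 0.26 over all 8690 genes tested, and 25 of the 37 lay above that value. Genes were not matched for level here, and the median TPM of the 37 was 12.1, against 22.9 over all rows. CR44832 had the largest SD, 0.92, with 10.8, 6.35, 14.9, 23.9 and 8.57 CPM in dSERT4 replicates 1 to 5 and 18.3, 8.57, 36.3, 12.2 and 28.4 CPM in dSERT16 replicates 1 to 5.

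The lncRNAs of middle level that hold no miRNA gene are described by place and level alone. CR45054 (3R, 10083381 to 10090525, forward strand) was next to CR42862, Hsromega and CR31451 by mean CPM. It ends 600 bp before mir-317 on the same strand, and beyond mir-317 lies CR43459, a miRNA host on that strand. CR45054 had 111, 76.0, 128, 159 and 113 CPM in dSERT4 replicates 1 to 5 and 88.3, 121, 106, 144 and 133 CPM in dSERT16 replicates 1 to 5, with both samples of replicate 4 the highest of their genotype. CR42861 (X, 13744928 to 13745476, forward strand) is a short single exon that lies between Grip91 and Pdcd4, with 100 bp to the latter, both on the other strand. It varied 1.38-fold, from 37.2 to 51.5 CPM over the 10 samples, while Pdcd4 had 410 ± 37.5 CPM in dSERT4 and 438 ± 36.0 CPM in dSERT16 (SD, n = 4).

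CR44024, the only member on chromosome 4, was about as steady, with 55.2 to 77.8 CPM and 1.41-fold between the lowest and the highest sample. CR46450 (18.4 to 27.5 CPM), CR44997 (34.9 to 57.8 CPM) and CR46064 (11.9 to 19.7 CPM) also varied less than 2-fold. Wider ranges were found for CR43685 (20.4 to 44.1 CPM), CR45758 (7.16 to 19.9 CPM), CR45668 (7.77 to 18.9 CPM), CR32773 (7.27 to 21.1 CPM) and CR44833 (6.07 to 26.4 CPM). At the low end CR45409, CR46208, CR44347, CR44506, CR43492 and CR46348 had medians over the 10 samples of 9.32, 7.99, 8.32, 7.23, 5.21 and 2.37 CPM. Of these, CR46348 (1.07 to 4.28 CPM), CR43492 (3.27 to 11.6 CPM) and CR44506 (4.23 to 14.9 CPM) varied more than 3-fold.

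The share of miRNA hosts was a property that the count rule did not name. The annotation placed 19 miRNA genes on the strand and within the span of 13 of the 37 lncRNAs (35.1%), and a miRNA gene in 11 of the 277 positioned lncRNA rows under the minimum (3.97%). This share is a description with no test, as raw read counts chose the 37. Such counts also grow with gene length, and length was not matched between the 37 and the rows under the minimum. Of the 11 hosts under the minimum, CR44909 with mir-288 had 44 reads in its lowest sample, iab8 with mir-iab-8 40, CR43314 with mir-bft 39, CR43650 with mir-8 13 and CR45347 with mir-4973 5. The others, among them CR42651 with mir-10 and CR45361 with mir-1, had 1 read or none there. Reads on a host are not the level of its mature miRNAs, and of 20 miRNA genes next to or inside the lncRNAs 19 had 0 reads, because reads within 2 overlapping features are counted for neither.

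let7C (FBgn0263049), on the forward strand of 2L from 18455717 to 18473132, holds the genes of let-7, miR-125 and miR-100. Its level was 21.3, 18.7, 24.8, 25.7 and 19.5 CPM in dSERT4 replicates 1 to 5 and 18.0, 23.3, 20.5, 13.4 and 15.8 CPM in dSERT16 replicates 1 to 5. It was lower in dSERT16 in 3 of the 4 pairs, and the ranges overlapped (log2 fold change -0.28 ± 0.20 (SE), edgeR adjusted p = 0.867).

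CR46006 and CR46004 are neighbours on the forward strand of 3L, at 10323501 to 10367450 and 10306678 to 10320600, and hold miR-276a and miR-276b. The first of these miRNAs is known in the mushroom body for its part in olfactory memory through a dopamine receptor. CR46006 was among the steadiest members, with 83.8, 80.4, 88.0, 85.8 and 79.3 CPM in dSERT4 replicates 1 to 5 and 76.7, 74.4, 88.0, 74.7 and 68.9 CPM in dSERT16 replicates 1 to 5. CR46004 ran from 11.6 to 21.8 CPM over the 10 samples with a median of 14.0. For each the ranges of the genotypes overlapped, and neither passed the test (log2 fold change -0.12 ± 0.11 and 0.22 ± 0.22 (SE), edgeR adjusted p = 0.896 and 0.919).

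The remaining hosts were at lower levels. CR43459, which holds miR-34 and miR-277, known for their roles in ageing and metabolism, stood at 19.4 to 33.4 CPM over the 10 samples. CR45919 holds miR-124, a miRNA of neurons in many animals, and stood at 4.58 to 9.02 CPM. CR43334 holds bantam, a miRNA that promotes growth and cell survival, and had 2.30 to 7.19 CPM. CR31044, with miR-279 and miR-996, which limit the formation of CO2-sensing neurons, had 3.09 to 8.51 CPM. CR45911 holds miR-2c, miR-13a and miR-13b-1 and had 1.65 to 7.34 CPM, and CR44206 (miR-184), CR45388 (miR-315) and CR43651 (miR-14) had medians of 7.05, 4.38 and 2.46 CPM. Hsromega, the host of mir-4951, and CR31451, the host of mir-9381, complete the 13.

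All 37 lncRNAs had enough reads to be tested between dSERT16 and dSERT4, and no lncRNA passed the test. Under edgeR's quasi-likelihood test over the 4 pairs 0 of 37 had an adjusted p under 0.05, where 43 of 8690 genes did (0.495%), a share that comes to less than 1 gene in 37. DESeq2 called 0 of 37 and 148 of 10453 genes (1.42%). An unadjusted p under 0.05 was found for 1 of 37 with edgeR, against 7.01% of all genes tested, and for 2 of 37 with DESeq2. The lowest adjusted p was 0.649 with edgeR and 0.415 with DESeq2. No lncRNA had genotypes that did not overlap over the 4 pairs, where 4.89% of all genes tested did, nor over all 5 pairs, where 2.70% did.

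The fold changes were small on the whole. Of the 37 log2 fold changes 24 lay below 0 and 13 above, with a median of -0.05 against 0.00 over all genes tested, and their median size was 0.18 against 0.15. The 13 miRNA hosts had a median of -0.04, with 4 above and 9 below 0. The 95% intervals lay within a 2-fold change for 30 of the 37 and within a 1.5-fold change for 12. Their half-width on the log2 scale ran from 0.17 for CR42862 to 1.27 for CR44832. For the most abundant lncRNAs the limits were tight, from 0.910-fold to 1.14-fold for CR42862 and from 0.836-fold to 1.18-fold for CR31451, whereas those of Hsromega, 0.557-fold to 1.70-fold, were wider although it had more reads than CR31451.

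**Figure D3:**
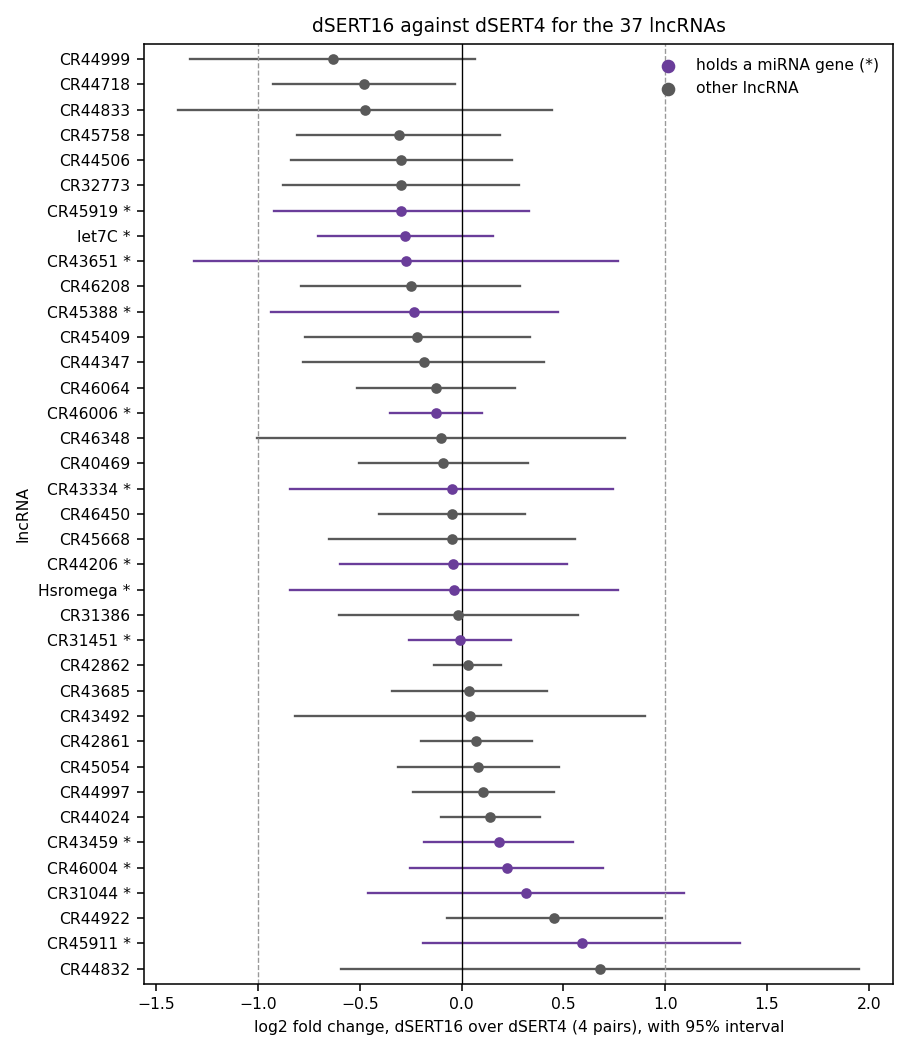
Log2 fold change of dSERT16 over dSERT4 for the 37 lncRNAs over the 4 pairs, points with 95% intervals from the edgeR fit, miRNA hosts in purple, solid line at 0 and dashed lines at a 2-fold change. The interval of CR44718, -0.92 to -0.03, is the only one that leaves out 0, and 30 of the 37 stay within the dashed lines.

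The member with the lowest unadjusted p was CR44718 (FBgn0265929), a single exon on the reverse strand of 3L from 11236500 to 11237620 that shares 28.5% of its exon with CR44719 on the other strand. It had 19.8, 15.4, 24.9, 22.7 and 27.9 CPM in dSERT4 replicates 1 to 5 and 19.3, 12.8, 16.7, 15.5 and 20.2 CPM in dSERT16 replicates 1 to 5. It was lower in dSERT16 in 4 of 4 pairs, yet the ranges overlapped, and it did not pass the test (log2 -0.48 ± 0.21 (SE), edgeR adjusted p = 0.649). Over all alternatives its adjusted p with edgeR or DESeq2 lay between 0.299 and 0.943.

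Only 5 of the 37 moved in one direction in all 4 pairs, 13.5% against 17.8% of all genes tested. Besides CR44718 these were CR44999, CR45758 and CR44506, lower in dSERT16, and CR45911, higher. CR44999 (X, 3373159 to 3522787, forward strand), most of which other features cover, had the lowest log2 fold change, -0.63 ± 0.33 (SE), with 7.91, 8.15, 7.44 and 4.31 CPM in dSERT4 replicates 2 to 5 and 4.32, 6.38, 3.25 and 3.91 CPM in dSERT16 replicates 2 to 5. CR45911 (3R, 15417320 to 15420710, reverse strand) had 2.66, 3.05, 4.83 and 4.31 CPM in dSERT4 replicates 2 to 5 and 7.34, 3.22, 5.04 and 6.72 CPM in dSERT16 replicates 2 to 5, a log2 fold change of 0.59 ± 0.36 (SE). Their edgeR adjusted p was 0.778 and 0.826.

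The other lncRNAs at the ends of the order were CR44833 at -0.47 ± 0.42, CR45758 at -0.31 ± 0.23, CR31044 at 0.32 ± 0.36, CR44922 at 0.46 ± 0.25 and CR44832 at 0.68 ± 0.56 (log2 fold change ± SE). For CR44832 the highest dSERT4 value, 23.9 CPM, was above 2 of the 4 dSERT16 values, and the interval ran from 0.664-fold to 3.87-fold. SerT lies on 2R, as do CR43651, CR44206, CR44506 and CR46064, whose log2 fold changes were -0.27, -0.04, -0.30 and -0.12 with no edgeR adjusted p below 0.896.

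No tested gene among those taken by position around the 37 lncRNAs passed the test either. These were the genes that overlap a lncRNA or, for the 15 lncRNAs that overlap no gene, the nearest gene on each side. Flanking genes of the other 22 lncRNAs were not taken. Of the 90 genes so taken, 52 had 0 reads in all samples and 25 had enough reads to be tested. Of these 25 edgeR called 0, against 0.495% of all genes tested. An unadjusted p under 0.05 with edgeR was found for 3 of the 25, against 7.01% of all genes tested. These 3 were CG10283, which overlaps let7C on the other strand (log2 0.29 ± 0.09, SE), alphaTub84B, a tubulin gene next to CR43685 (0.20 ± 0.09), and CG16721 on the strand opposite CR45668 (0.35). The lowest adjusted p among them was 0.360, for CG10283, with means of 104 ± 6.42 CPM for dSERT4 and 128 ± 7.66 CPM for dSERT16 (SD, n = 4). For let7C the means were 22.2 ± 3.56 and 18.3 ± 4.44 CPM.

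The count minimum itself leaves out lncRNAs that are near 0 in either genotype, so that 0 of 37 does not describe all lncRNAs. Of the 278 rows under it 141 could be tested, and edgeR called 0 of them, against 0.495% of all genes tested. An unadjusted p under 0.05 with edgeR was found for 3 of the 141, against 7.01% of all genes tested. DESeq2 called 1 of the rows under the minimum, against 1.42% of all the genes it tested. That gene was CR43837 on X, with 0.415, 0, 0.470, 0.542 and 0.533 CPM in dSERT4 replicates 1 to 5 and 1.54, 1.95, 3.03, 2.11 and 2.16 CPM in dSERT16 replicates 1 to 5 (edgeR adjusted p = 0.408, DESeq2 adjusted p = 0.0250). CR45973 on 3L showed the opposite, with 11.6, 9.28, 6.14, 7.39 and 4.70 CPM in dSERT4 replicates 1 to 5 and 0.0155, 2.10, 0.0953, 1.19 and 0 CPM in dSERT16 replicates 1 to 5 (edgeR adjusted p = 0.438, DESeq2 adjusted p = 0.295). In both the genotypes did not overlap over all 5 pairs, as was so for 2.70% of all genes tested. All 3 genes with an unadjusted p under 0.05 with edgeR are named here after their values were seen. The third, CR43761 on 2L, had 0.537 to 1.38 CPM in the dSERT4 samples and 0.0460 to 0.419 CPM in the dSERT16 samples, with no overlap (log2 -1.92, edgeR adjusted p = 0.636, DESeq2 adjusted p = 0.273).

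Replicate 1, which the study set aside, was compared with replicates 2 to 5 across both genotypes to see whether these lncRNAs moved with that pair. With genotype as a covariate edgeR called 0 of 37, against 84 of 8726 genes (0.963%), and 6 of 37 had an unadjusted p under 0.05, against 15.0% of all genes tested. DESeq2 called 2 of 37, CR31386 and CR40469, against 5.27% of the genes it tested. In 4 of the 37 both samples of replicate 1 lay outside the range of the other 8, as did 10.1% of all genes tested. These were CR31386 and CR40469, which were lower, and CR43685 and CR31044, which were higher.

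CR31386 (3R, 11269415 to 11305608, reverse strand), with 2763 bp of exons in a span of 36194 bp, had 2.72 CPM in dSERT4 replicate 1 and 3.26 CPM in dSERT16 replicate 1. In the other 8 samples it had 5.18 to 7.48 CPM with a median of 6.27 (log2 -1.07 ± 0.34 (SE), edgeR adjusted p = 0.161, DESeq2 adjusted p = 0.000803). CR40469 (X, 122493 to 122706, forward strand), the shortest of the 37, had 15.1 and 15.2 CPM in the samples of replicate 1 and 16.0 to 29.6 CPM in the others (log2 -0.65 ± 0.22 (SE), edgeR adjusted p = 0.192, DESeq2 adjusted p = 0.0490). CR31044, the host of miR-279 and miR-996, had 8.0 and 8.51 CPM in replicate 1 and 3.09 to 6.91 CPM in the others (log2 0.82 ± 0.36 (SE), edgeR adjusted p = 0.298). CR44922 had the next highest difference, 0.69 ± 0.25, although its 20.5 and 32.1 CPM in replicate 1 overlapped the others, which reached 27.6 CPM.

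In the same samples of replicate 1 all 8 glial markers tested were lower, with repo, the transcription factor of glia, at 1.01 to 7.21 CPM against 15.4 to 26.0 CPM in the other samples, while 9 of the 13 KC markers were lower and 4 higher. The part of glial or KC RNA in these differences was not tested. The summed glial level did not separate the genotypes in the 4 pairs, with 958 to 1628 CPM in dSERT4 and 1005 to 1591 CPM in dSERT16. Hsromega, CR42862, CR31451, let7C and CR46006 had log2 differences of 0.07, 0.15, 0.17, -0.04 and 0.01 between replicate 1 and the others.

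**Figure D4:**
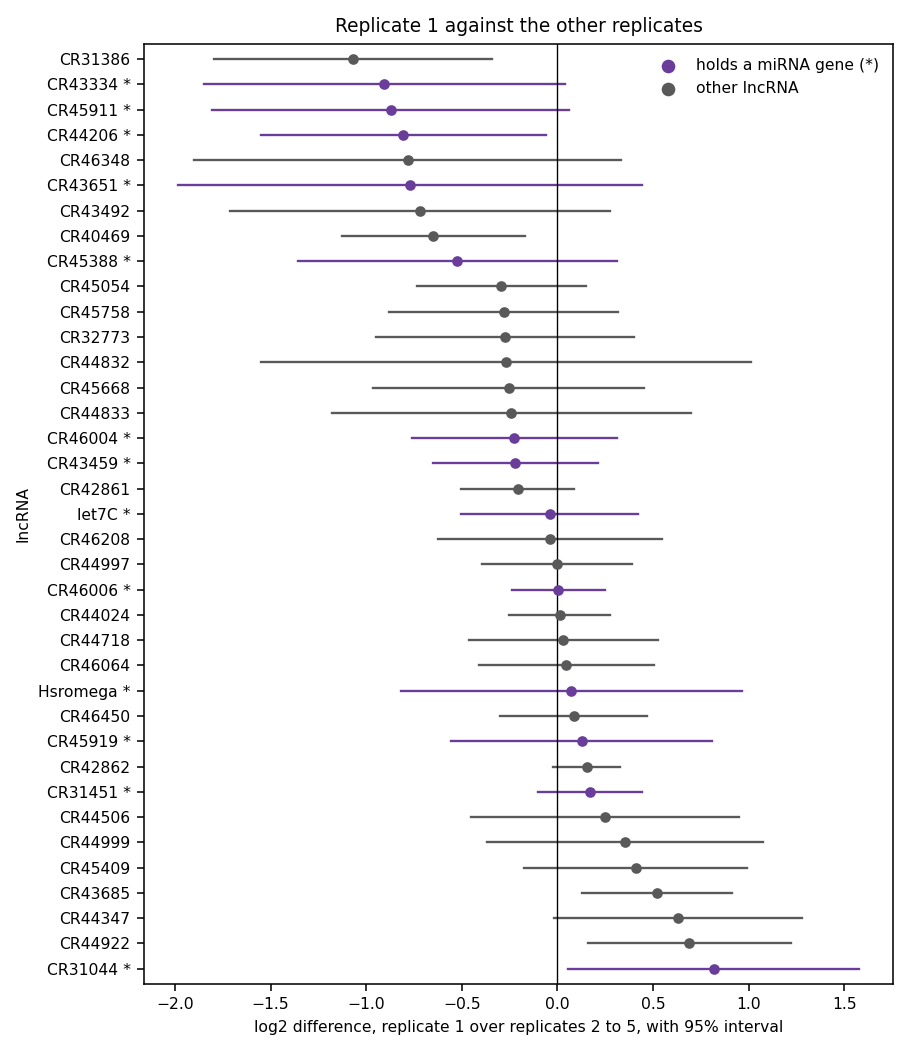
Log2 difference between replicate 1 and replicates 2 to 5 for the 37 lncRNAs in the fit over 10 samples with genotype as a covariate, points with 95% intervals, miRNA hosts in purple. CR31386, at -1.07, has the lowest value and CR31044, at 0.82, the highest.

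How far a count stands for its lncRNA depends on what overlaps it. Of the 37 genes 24 had over 95% of their span free of other features, and 20 were a single block of exons. The exon length had a median of 1938 bp (214 to 21710) and the gene span a median of 4982 bp (214 to 223710). The 4 lncRNAs with spans over 100 kb, CR32773, CR44833, CR44997 and CR44999, were all on X, where 9 of the 37 lie, and had exons of 446 to 2025 bp. The sources used here do not say whether introns were counted. All 1949 protein-coding genes that lie wholly inside another feature had 0 unstranded reads in every sample, as counting over whole gene spans would give, and on such counting the reads on the introns of these 4 are part of their counts.

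The libraries did not mark strand, with 48.3% to 49.9% of the strand-assigned reads on the first strand. The sum of both strand-specific columns, which gives back reads that an overlap on the other strand had removed, was at most 1.1 times the unstranded count for 28 of the 37 lncRNAs. It was over 2 times the unstranded count for 4, at 31.2 for CR44999, 25.0 for CR32773, 4.30 for CR46064 and 3.74 for CR45668, and these added reads cannot be told apart from those of the genes on the other strand. For CR44999, of whose span 10.8% is free of other features, the log2 fold change between genotypes was -0.63 on unstranded counts and -0.01 on the strand sum. CR44718 stood at -0.48 and -0.47, CR45911 at 0.59 and 0.60, and let7C at -0.28 and -0.25 on the same scales.

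**Figure D5:**
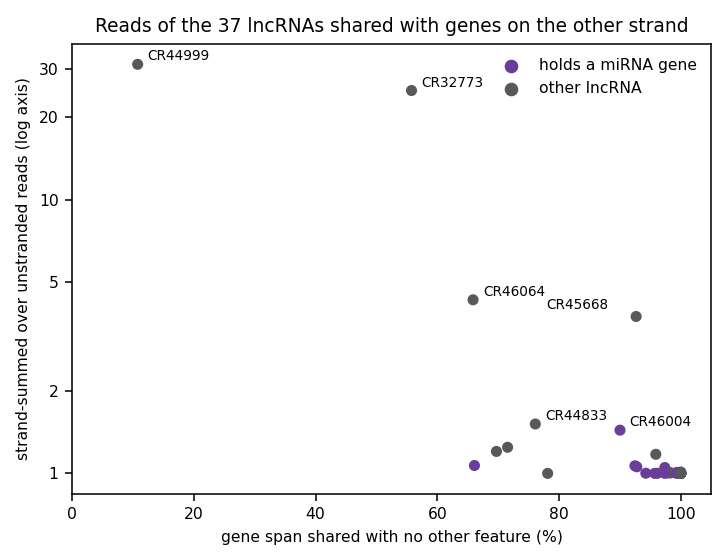
Ratio of strand-summed to unstranded reads (log axis) against the share of the gene span covered by no other feature, 1 point per lncRNA, miRNA hosts in purple. CR44999 and CR32773, at 31.2 and 25.0, stand apart, and most of the 37 lie at a ratio near 1 with nearly all of their span free.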

How the data were processed

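The authors aligned SMART-seq reads with STAR to the BDGP6 (dm6) genome, per the labels and the study's methods, and deposited for each of 10 samples the counts of uniquely mapped reads per feature in 3 columns (unstranded and each strand). Their versions were not given in the sources used here. The authors also deposited TPM values for the 4 pairs, computed with whole gene spans (within 1% for 99.9% of genes with over 100 reads in each sample), next to columns of fold changes and p-values of their own comparison, which were not used. Members were chosen by unstranded counts of 50 or more. Ambiguous reads (8.84% to 9.85%) and reads on no feature (0.264% to 0.463%) stayed out of library sizes and tests. Reads over 2 features count for neither.

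The tests ran on the unstranded counts in edgeR 4.0.16 (R 4.3.3, with filterByExpr with a minimum count of 10 and total of 15, TMM, glmQLFit with robust estimation), over all features that passed, with Benjamini-Hochberg adjustment and a threshold of 0.05. No covariate was used between genotypes. DESeq2 1.42.0 was an alternative, as were its size factors, 2 other filters, all 5 pairs, the strand sum, a replicate block and leaving out each sample. CPM values are TMM-normalized, SE is the absolute log2 fold change over the square root of F, and intervals are at 95%. Values print mean ± SD or SE as named. Summaries used Python 3.11.15. On simulated counts for the genotype fit, with 100 genes changed 2-fold and 100 changed 4-fold among 8690, 67 and 74 were called.

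A replicate number stands for a shared title prefix, and the study states that genotypes were dissociated in parallel, so the numbers were taken as pairs. Deviations from the genotype means correlated at 0.217, 0.104, 0.121, 0.0956 and 0.0546 within replicates 1 to 5, against a highest value with another number of -0.0106, 0.0736, 0.0666, 0.0508 and 0.0674, so that replicate 5 did not correlate best with its own number. The labels do not say what the prefix means. Libraries of the 10 samples were made together from separate collections of pooled brains. No pair of samples of a genotype agreed within counting noise (chi-square per degree of freedom of at least 25.1 over 20 pairs).

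The 37 members, the marker lists and the tests were chosen with earlier results of these data known. Named genes are those highest in level, with the largest differences in each direction, with a word as name, at the edges of the count minimum, or with the largest SD. Hosts, 2R genes and rows under the minimum were named by position or after their values were seen. Promoter and miRNA sequences were not used here.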

Additional observations from a re-analysis of the deposited data

Results flagged for a closer look

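On the 498 of 1931 positioned lncRNA features that have no base free of other features, the unstranded columns held 0 reads in all 10 samples, and the strand-specific columns summed to 295614 reads. This signal lies outside the columns used in the report, and no control level exists for it. These reads are shared with the genes that overlap on the other strand and cannot be assigned. The same counting left 1949 protein-coding genes that lie wholly inside another feature with 0 unstranded reads in all samples. No sample stood apart from its genotype in any of the 74 groups of 5 samples examined, 37 lncRNAs in 2 genotypes, by Dixon's criterion, which flags about 1 group in 20 by chance.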

How the results depend on the processing

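Between the genotypes 0 of 37 lncRNAs were called under all 16 alternatives, the replicate block included. Over all genes 43 were called, against 148 with DESeq2, 77 without a filter on low counts, 66 with all 5 pairs, 94 with the replicate block and all 5 pairs, 54 with the replicate block alone, and 18 to 40 when a sample was left out (18 without dSERT4 replicate 3, 19 without dSERT16 replicate 3, 21 without dSERT16 replicate 5 and 22 without dSERT4 replicate 5). The replicate block changed no call among the 37. For replicate 1 DESeq2 called 2 of 37, CR31386 at -1.07 and CR40469 at -0.65. A minimum of 20 reads gave 70 lncRNAs, one of 100 reads 29 and the strand sum 48.

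Among the lncRNAs named by rule, signs turned for some whose reported log2 value lay between -0.28 and 0.08. Between genotypes CR31386 was at 0.013 with all 5 pairs and 0.039 with the replicate block and all 5 pairs, CR31451 at 0.00326 with the replicate block, and CR46006 for replicate 1 at -0.00451 with at least 10 counts in every sample. Leaving out a sample moved the genotype log2 value of CR46348 from -0.29 to 0.14, of CR40469 from -0.20 to 0.051, of CR43334 from -0.33 to 0.18, of Hsromega from -0.34 to 0.15, of CR31386 from -0.10 to 0.076, of CR31451 from -0.11 to 0.093, of CR42862 from -0.014 to 0.083 and of CR45054 from -0.079 to 0.25. For replicate 1 it moved CR44718 from -0.19 to 0.24, CR45758 from -0.72 to 0.10, let7C from -0.10 to 0.036, CR46006 from -0.0070 to 0.049 and Hsromega from -0.35 to 0.45. The cause was not tested. On the strand sum the genotype values of CR46064, CR45668 and CR32773, which the rule did not name, turned to 0.03, 0.15 and 0.02. The other values of the lncRNAs named by rule kept their direction. Depth and spread left 7 lncRNAs with an interval between genotypes that reached a 2-fold change.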
